A study of Mus musculus with 9 samples.

Results

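Chromosome 8 of the mouse was followed from its first to its last StyI site in E14Tg2a embryonic stem cells, a line of 129P2 background grown on gelatin in medium with serum and LIF. The chromosome was taken whole: every interval between adjoining StyI sites was a member, which gave 153274 of the 3053721 fragments of the genome, or 5.02%. The fragments ran from 3000979 to 131737919 on build mm9 and had a median length of 526 bp, against 539 bp over the genome. The study compared 3 libraries of the HRS fraction (high-salt recovered sequences, the DNA that stays in the insoluble residue of the nucleus) and 3 libraries of the Loop fraction (the DNA released from it) with 3 libraries of genomic input DNA. All 9 libraries came from this 1 cell line, and the labels name no treatment and no genetic change for any of them. The inputs are titled D0, D12 and D21 and no label says what these terms mean or whether replicates were grown apart. The spread behind each p-value is thus that between libraries, which may be technical only. The chromosome was chosen by its share of the counts in replicate 3 of both fractions and in the D0 input, which was known to stand apart. Values of that share are therefore given as a description with no test.

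Extraction of nuclei at high salt strips most histones and many other proteins from the DNA, so that long stretches spread out as loops while some sites stay bound to the residual nuclear structure. A restriction enzyme then cuts the loops free, and the sequences left behind mark the sites of attachment or of DNA held in dense protein assemblies. Mouse chromosomes carry their centromere at the end where coordinates begin, so that low positions on chromosome 8 lie near the centromere and high ones near the far telomere. Gain of a whole chromosome 8 is a frequent change in cultured mouse embryonic stem cells, given here as background and not as a reading of these libraries. The sequence and the genes at the positions below were not looked up, as no annotation of the mm9 build was used here.

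Depth was high enough to follow the chromosome in fine steps. The libraries held 39.1 to 62.9 M counts over the genome, of which 2556927 (HRS replicate 3) to 3951267 (Loop replicate 3) fell on chromosome 8. No count in any library was recorded for 13.4% of the fragments of the chromosome, against 16.4% over the genome. The 2 longest fragments were among these, one of 2000303 bp from 20038608 to 22038911 and one of 1702503 bp from 56208957 to 57911460, so that nothing can be said of these stretches. Fragments of up to 200 bp held 30.9% ± 1.74 of the chromosome's counts for HRS, 52.3% ± 4.46 for Loop and 26.9% ± 0.745 for the inputs (SD, n = 3 each). The Loop libraries lay above all HRS and input libraries, so each comparison of fractions below is also given with fragment length corrected.

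Replicate 3 of both fractions carried more of chromosome 8 than any other library. The chromosome took 6.55% of the counts in HRS replicate 3, against 5.49% and 5.59% in HRS replicates 1 and 2. It took 6.73% in Loop replicate 3, against 5.60% and 5.68% in Loop replicates 1 and 2. Among the inputs it took 5.72% in D0, against 5.47% in D12 and 5.49% in D21. Divided by the mean share of the 3 inputs, the ratio reached 1.178 for HRS replicate 3 and 1.210 for Loop replicate 3. The other 4 fraction libraries ranged from 0.988 to 1.022, and D0 was at 1.029. Of the 19 autosomes only chromosome 11 had a higher ratio in HRS replicate 3, at 1.324, in Loop replicate 3, at 1.212, and in D0, at 1.047. The other 17 autosomes ranged from 0.899 to 1.062 in HRS replicate 3, from 0.925 to 1.009 in Loop replicate 3 and from 0.981 to 1.006 in D0. The excess was shared by both fractions of replicate 3, so the share of the whole chromosome in HRS over that in Loop hardly moved: the log2 ratio was -0.03, -0.02 and -0.04 in replicates 1, 2 and 3. Taken as the median over 1 Mb windows, the ratio to input was 1.006 in HRS replicate 3, against 0.951 and 0.967 in HRS replicates 1 and 2, and 1.153 in Loop replicate 3, against 0.993 and 0.997 in Loop replicates 1 and 2. Intervals for counting error (95% Wilson) were 1.176 to 1.179 for HRS replicate 3 and 1.209 to 1.211 for Loop replicate 3, and they cover counting error only.

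**Figure D1:**
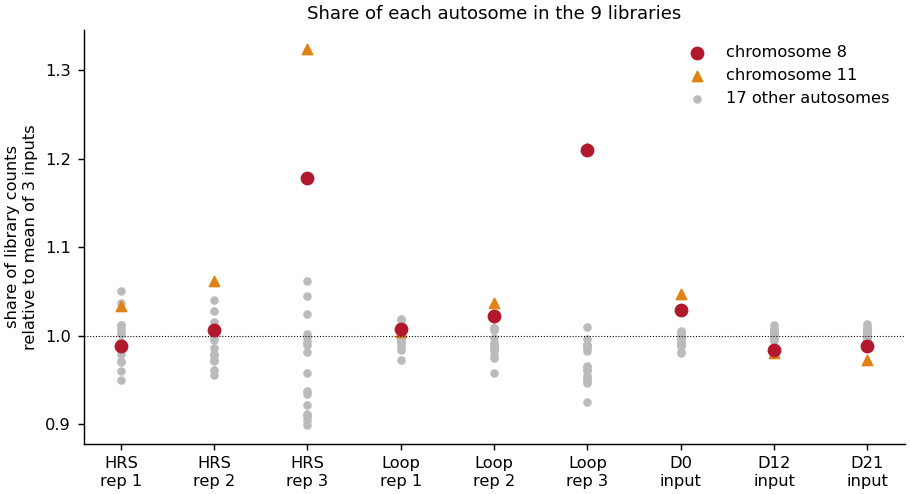
Share of the library's counts on each autosome, divided by the mean share of the 3 inputs, for the 3 HRS, 3 Loop and 3 input libraries. Each dot is 1 chromosome in 1 library and the dotted line marks the mean of the inputs. Chromosome 8 lies at 1.178 in HRS replicate 3 and at 1.210 in Loop replicate 3, where its dot covers that of chromosome 11, and near 1 elsewhere.

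The excess in Loop replicate 3 ran along nearly the whole chromosome. In windows of 1 Mb the CPM (counts scaled by the library total) of replicate 3 were divided by the mean of replicates 1 and 2 of the same fraction, over the 126 windows with at least 1000 counts in every library. All 126 windows were above 0 on the log2 scale in Loop, with a median of 0.23 (1.17-fold), a range of 0.04 to 0.36 and an SD between windows of 0.0681. The median was 0.22 below 45 Mb, 0.20 between 45 and 90 Mb and 0.26 above 90 Mb, so that the excess was found at both ends and in the middle. On the 17 autosomes other than 8 and 11 the median was -0.06, and 15.6% of 2146 windows were above 0. On chromosome 11 the median was 0.24. The 2 windows with fewer counts were left out of these figures, and one of them went the other way. From 20000001 to 21000000, at the longest uncounted fragment, 51 fragments held 1.61 CPM in HRS replicate 3, against 6.70 and 9.49 CPM in HRS replicates 1 and 2. They held 0.936 CPM in Loop replicate 3, against 8.21 and 18.4 CPM in Loop replicates 1 and 2, and 1.11, 0.919 and 1.16 CPM in D0, D12 and D21. Replicate 3 of both fractions was closer to the inputs there than replicates 1 and 2. In the other window, from 57000001 to 58000000, the log2 ratio was 0.07 in Loop and -0.26 in HRS.

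In HRS replicate 3 the same excess was laid over a coarser relief. The median was 0.14 (1.10-fold), the windows ranged from -0.23 to 0.60, and 88 of 126 were above 0, against a median of -0.15 and 24.0% of windows above 0 on the 17 other autosomes. The medians were 0.08 below 45 Mb, 0.11 between 45 and 90 Mb and 0.21 above 90 Mb. The highest window, from 87000001 to 88000000, held 1573 CPM in HRS replicate 3, against 1049 and 1029 CPM in HRS replicates 1 and 2. The lowest, from 51000001 to 52000000, held 170 CPM in HRS replicate 3, against 199 and 200.5 CPM in HRS replicates 1 and 2. Windows from 73000001 to 74000000 (log2 ratio 0.59) and from 125000001 to 126000000 (log2 ratio 0.56) came next to the top. The other low windows began at 104000001 (0.889-fold) and 65000001 (0.890-fold).

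The top of the Loop replicate 3 profile lay in the same parts of the chromosome. Its highest window was that from 73000001 to 74000000, with 1088 CPM in Loop replicate 3, against 829 and 866 CPM in Loop replicates 1 and 2. Windows beginning at 86000001 and 108000001 followed, at 1.26-fold each. The lowest windows began at 54000001, 6000001 and 102000001, at 1.03-fold, 1.03-fold and 1.05-fold, and even these were not below replicates 1 and 2.

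The D0 input differed from D12 and D21 in a weaker way. The median ratio over the 126 windows was 0.04 on the log2 scale (1.03-fold), the range was -0.27 to 0.21, and 76 windows (60.3%) were above 0. On the 17 other autosomes the median was -0.03 and 42.2% of windows were above 0, and on chromosome 11 the median was 0.10 with 79.8% above 0. The window from 72000001 to 73000000 was the highest, with 832 CPM in D0, against 741 CPM in D12 and 699 CPM in D21. The window from 102000001 to 103000000 was the lowest, with 157 CPM in D0, against 181 CPM in D12 and 198 CPM in D21. Windows beginning at 74000001 and 113000001 were also high (1.14-fold each), and windows beginning at 51000001 and 105000001 were also low (0.863-fold and 0.866-fold). With D0 on one side and a pair of libraries on the other, there was no replicate of D0 to set a spread against.

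**Figure D2:**
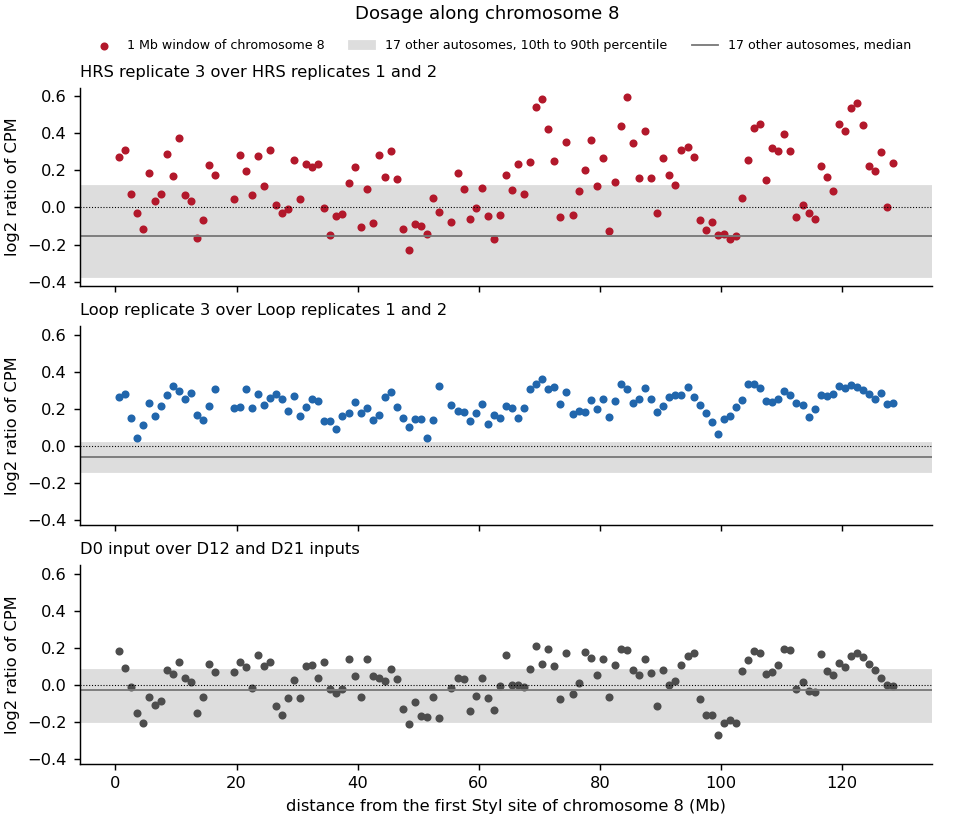
Log2 ratio of CPM in 1 Mb windows along chromosome 8 by distance from its first StyI site (Mb), for HRS replicate 3 over HRS replicates 1 and 2, Loop replicate 3 over Loop replicates 1 and 2, and D0 over D12 and D21. Dots are windows, and the grey band and line give the 10th to 90th percentile and the median of the windows of the 17 other autosomes. All 126 dots of Loop replicate 3 are above 0, while those of HRS replicate 3 range from -0.23 to 0.60 and those of D0 from -0.27 to 0.21.

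All 3 ratios moved with the number of StyI fragments in a window, on chromosome 8 and elsewhere. Across the 126 windows, which share the libraries and their depth, Pearson's r with fragments per window was 0.68 for HRS replicate 3, 0.69 for Loop replicate 3 and 0.65 for D0, against 0.65, 0.68 and 0.56 on the 17 other autosomes. Spearman's rho on chromosome 8 was 0.69, 0.77 and 0.67. Windows were therefore also compared within 5 groups of fragment number, a setting added after the data were seen. The limits of the groups were taken from the windows of the 17 other autosomes. Within groups the median of chromosome 8 exceeded that of the 17 other autosomes by 1.21-fold to 1.22-fold in Loop replicate 3, and all 126 windows lay above the other autosomes' median of their group. The excess was 1.19-fold to 1.30-fold in HRS replicate 3, with 123 of 126 windows above. In D0 it was 1.02-fold to 1.06-fold, with 102 of 126 windows above. At matched fragment number the excess of chromosome 8 was thus of like size in HRS and Loop, and the ratios climbed with fragment number on the other autosomes too.

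**Figure D3:**
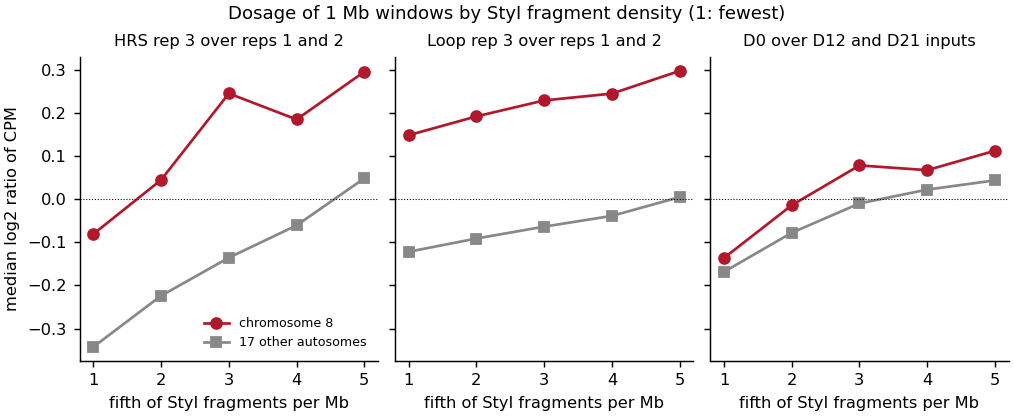
Median log2 ratio of CPM of 1 Mb windows in 5 groups of equal size by StyI fragments per window (1 holds the fewest), on chromosome 8 (red) and on the 17 other autosomes (grey), for HRS replicate 3, Loop replicate 3 and D0. Both lines are lowest in group 1 and highest in group 5 in each panel, with a dip of chromosome 8 from group 3 to group 4 in HRS replicate 3 and D0. The gap between the lines is 1.19-fold to 1.30-fold in HRS replicate 3, 1.21-fold to 1.22-fold in Loop replicate 3 and 1.02-fold to 1.06-fold in D0.

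The comparison of HRS with Loop asked which stretches of the chromosome were kept with the nuclear residue and which were released. Counts were summed in 100 kb windows over the whole genome and tested with edgeR's quasi-likelihood test at a Benjamini-Hochberg adjusted p of 0.05. Of 1253 windows tested on chromosome 8, 214 were higher in HRS (17.1%), against 24% of windows over the genome, and 313 were lower in HRS (25%), against 25.5% over the genome. The retained windows differed by more than the released ones. The median was 1.49-fold for windows higher in HRS and 1.32-fold for windows higher in Loop, against 1.41-fold and 1.29-fold over the genome, and 16 retained windows but 1 released window exceeded 2-fold. Without both replicate 3 libraries the medians were 1.28-fold and 1.24-fold, against 1.29-fold and 1.24-fold over the genome, and 8 retained windows and 1 released window exceeded 2-fold. Windows past 2-fold were not counted over the genome, so these counts cannot be called particular to chromosome 8. In the first fit, with replicate 3 kept, the share of windows higher in Loop was near that over the genome (25% against 25.5%). The share higher in HRS was below it (17.1% against 24%).

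These counts moved with the treatment of the libraries. With fragment length corrected 190 windows were higher in HRS (15.2%, against 24% over the genome) and 231 lower (18.4%, against 21.2% over the genome), and 357 of the 527 uncorrected calls recurred with the same sign. With the replicate number as a block 328 were higher (26.2%, against 28.4% over the genome) and 422 lower (33.7%, against 29.7% over the genome), and all 527 first calls were among them. With both replicate 3 libraries left out 377 were higher (30.1%, against 31.6% over the genome) and 449 lower (35.8%, against 31.3% over the genome), and 525 of the 527 first calls were among them. Libraries that moved a count past 1.5 times when left out alone were Loop replicates 1 and 2, without which 139 and 133 windows were higher in HRS. Windows lower in HRS numbered 179 without HRS replicate 1, 473 without HRS replicate 3 and 201 without Loop replicate 3. The log2 ratios of the 3 numbered pairs followed each other along the chromosome, with Pearson's r of 0.92 between pairs 1 and 2, 0.91 between pairs 1 and 3 and 0.85 between pairs 2 and 3 over 1253 windows, which share base composition and fragment length.

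**Figure D4:**
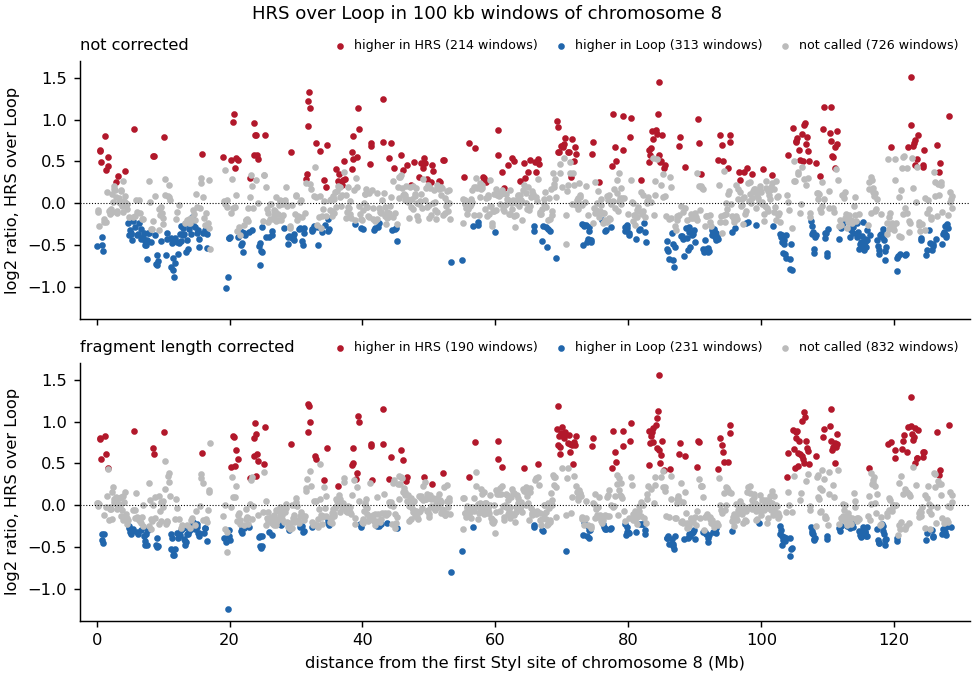
Log2 ratio of HRS over Loop in 1253 windows of 100 kb along chromosome 8, by distance from the first StyI site (Mb), without correction (top) and with fragment length corrected (bottom). Red windows were higher in HRS (214 and 190), blue windows higher in Loop (313 and 231), and grey windows were not called at an adjusted p of 0.05. Red windows stand in narrow peaks and blue windows in broad shallow stretches.

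Of the windows called higher in HRS with the same sign in all 3 pairs and at least the median count of the chromosome, the 10 with the largest ratio formed 7 regions. The strongest lay near the far telomere, from 125500001 to 125600000. It held 87.3, 87.0 and 118 CPM in HRS replicates 1, 2 and 3, against 34.5, 33.99 and 39.7 CPM in Loop and 50.0, 43.8 and 42.6 CPM in the D0, D12 and D21 inputs. Every HRS library lay above every Loop and input library, and HRS exceeded Loop by 1.51 ± 0.16 on the log2 scale (SE; adjusted p 4.07e-05 in edgeR). The signal was spread over the window, and the leading fragment held 3.33% of the HRS counts. Of its 94 fragments with at least 20 counts over all libraries, 92 were higher in HRS by library totals. Scaled to the counts of their own length class, 12 of 12 fragments of up to 200 bp and 82 of 82 longer ones were. The window was picked for its ratio, and the share over all fragments of the chromosome or genome was not counted.

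The second region covered 87400001 to 87600000 and was the most heavily counted of the 7. Its stronger window held 193, 182 and 295 CPM in HRS replicates 1, 2 and 3, against 80.3, 81.9 and 97.8 CPM in Loop and 91.6, 84.3 and 80.6 CPM in the inputs. The groups did not overlap, and HRS replicate 3 was the highest library, as on much of the chromosome. The log2 ratio was 1.45 ± 0.23 (SE), with an adjusted p of 0.000487 in edgeR, and without both replicate 3 libraries it was 1.25. Of 144 fragments with enough counts 139 were higher in HRS by library totals. Scaled to their length class, 36 of 37 fragments of up to 200 bp and 107 of 107 longer ones were. This window too was picked for its ratio.

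The third region covered 34800001 to 35100000. Its strongest window, the only one of the 7 strongest windows in which HRS replicate 3 was not the highest library, held 114, 131.7 and 123 CPM in HRS replicates 1, 2 and 3, against 50.5, 44.7 and 58.5 CPM in Loop and 61.7, 52.3 and 52.6 CPM in the inputs. HRS and Loop did not overlap, and the log2 ratio was 1.33 ± 0.13 (SE), with an adjusted p of 3.46e-05 in edgeR. The other 4 were the windows beginning at 46000001 (2.38-fold), 113500001 (2.22-fold), 112300001 (2.21-fold) and 42300001 (2.21-fold). All 7 passed the threshold with fragment length corrected, at 1.88-fold to 2.95-fold, and with the replicate block. In each of the 7, between 86 and 150 fragments lay in the strongest window and no fragment held more than 3.41% of its HRS counts. Scaled to the counts of their own length class, fragments of up to 200 bp and longer ones were both higher in HRS in every one of these windows. The log2 ratios were 0.82 to 1.38 for the short and 0.77 to 1.51 for the long fragments.

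In the other direction the 10 windows with the largest ratio formed 8 regions, of which 4 lay near the centromeric end, between 11900001 and 14800000. The strongest covered 14500001 to 14800000. Its strongest window held 52.1, 54.2 and 49.2 CPM in HRS replicates 1, 2 and 3, against 92.3, 93.9 and 113 CPM in Loop and 79.3, 82.4 and 84.3 CPM in the inputs. Every HRS library lay below every input library and every input library below every Loop library. The log2 ratio to Loop was -0.88 ± 0.11 (SE), with an adjusted p of 0.000117 in edgeR, and -0.59 with fragment length corrected.

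The window from 123400001 to 123500000 held 77.1, 76.6 and 89.6 CPM in HRS replicates 1, 2 and 3, against 134, 148 and 168 CPM in Loop and 112, 108 and 112 CPM in the inputs. Its HRS, input and Loop libraries were likewise apart, in the same order. The log2 ratio was -0.81 ± 0.15 (SE, adjusted p 0.00143 in edgeR). The other regions were the windows beginning at 107500001, 14200001, 89800001, 27600001, 12100001 and 11900001, at 1.65-fold to 1.75-fold. All 8 passed the threshold with fragment length corrected, at 1.35-fold to 1.51-fold, and with the replicate block. They were dense in StyI sites, with 146 to 187 fragments a window, and their leading fragments were 37 to 104 bp long. Within both length classes most fragments were lower in HRS: in the strongest window 4 of 53 short fragments and 13 of 116 longer ones were higher in HRS, each scaled to its class. By library totals, 41 of these 169 fragments were higher in HRS.

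The only window past 2-fold towards Loop, from 22400001 to 22500000, was outside this rule because of its low counts and is named after its values were seen. It held 1.24, 1.35 and 1.18 CPM in HRS, against 2.53, 2.94 and 2.52 CPM in Loop and between 1.56 and 2.06 CPM in the inputs. Its log2 ratio was -1.01 (adjusted p 0.000536 in edgeR) and -0.45 with fragment length corrected (adjusted p 0.0483). It belonged to a stretch of 8 windows from 22000001 to 22800000, beside the longest uncounted fragment, in which the mean over the 9 libraries was between 0.467 and 19.2 CPM, against a median of 40.0 CPM over the windows of the chromosome. These windows held 61 to 115 fragments, so the counts were low although StyI sites were there.

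**Figure D5:**
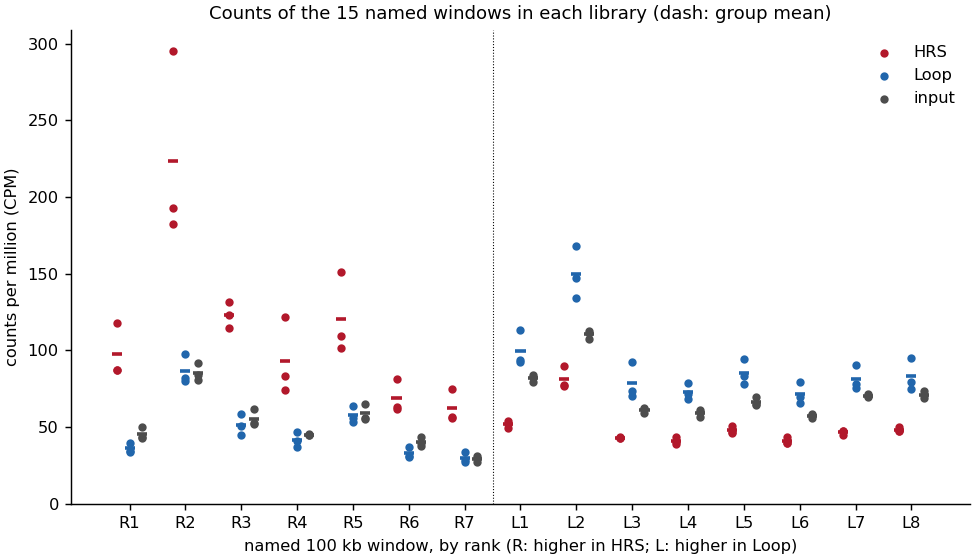
CPM of the strongest 100 kb window of each named region in every HRS, Loop and input library, with a dash at the group mean. R1 to R7 are the windows beginning at 125500001, 87500001, 34900001, 46000001, 113500001, 112300001 and 42300001, and L1 to L8 those beginning at 14600001, 123400001, 107500001, 14200001, 89800001, 27600001, 12100001 and 11900001. In R1 to R7 the HRS dots lie above both other groups, Loop and input overlap in R2 to R5 and R7, and Loop lies below input in R1 and R6. In L1 to L8 the HRS dots lie below input and the Loop dots above it.

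In the first fit, retained and released windows were arranged differently along the chromosome. Runs were counted in that fit only. The replicate block called 328 windows higher and 422 lower in HRS, and the fit without both replicate 3 libraries 377 and 449. Whether the runs would be longer there was not tested. The 214 windows higher in HRS formed 129 runs of adjoining calls, of which 73 were single windows and the longest held 5. The 313 windows higher in Loop formed 122 runs, of which 56 were single windows, 19 held at least 5 and the longest held 13. A called neighbour in the same direction was found for 65.9% of windows higher in HRS, against 76.5% over the genome, and for 82.1% of windows higher in Loop, against 77.8% over the genome.

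The 3 longest retained runs were 500 kb each and began at 34600001, 87300001 and 113300001. The run from 87300001 to 87800000 held 563, 558 and 880 CPM in HRS replicates 1, 2 and 3, against 314, 326 and 395 CPM in Loop and 345, 316 and 295 CPM in the inputs. Its mean log2 ratio was 0.89 (0.98 with fragment length corrected). The ratio peaked inside the run, with 0.83, 1.07, 1.45, 0.58 and 0.50 in its 5 windows. The windows just before and just after it, at 0.53 and 0.22, missed the threshold, but calls resumed beyond them. Windows beginning at 87100001, 87900001 and 88000001 were higher in HRS, at 0.88, 0.51 and 0.81 (adjusted p 0.00531, 0.0487 and 0.00511 in edgeR). The window beginning at 87000001, at 0.10, was not called. The run from 34600001 to 35100000 climbed over its 5 windows from a log2 ratio of 0.36 in the first to 1.33 in the fourth. Its last window was at 1.14 and the next one at 0.23 (adjusted p 0.246 in edgeR). With fragment length corrected the step was smaller, from 0.99 to 0.41. That next window held 75.6 ± 12.9 CPM in HRS and 68.0 ± 8.24 CPM in Loop (SD, n = 3 each). Runs of 400 kb began at 26600001 and 72200001, with mean log2 ratios of 0.79 and 0.78 (0.81 and 0.91 with fragment length corrected).

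The longest released run spanned 1300 kb, from 117700001 to 119000000. It held 536, 568 and 523 CPM in HRS replicates 1, 2 and 3, against 748, 743 and 853 CPM in Loop and 739, 753 and 770 CPM in the inputs. HRS lay below both other groups in every library, while Loop and input overlapped. Its 13 windows were alike, with log2 ratios from -0.56 to -0.22 and a mean of -0.45, and all 13 were called again with fragment length corrected (mean -0.33). Runs of 1000 kb began at 95500001 and 105800001, and runs of 900 kb at 130200001 and 10000001, with mean log2 ratios between -0.48 and -0.35. The run at 95500001 depended most on fragment length, as 4 of its 10 windows were called with length corrected. It ended beside a retained window: the log2 ratio was -0.42 from 96400001 to 96500000 and 0.52 from 96500001 to 96600000 (adjusted p 0.00884 in edgeR).

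Over blocks of 10 Mb the most released one began at 10000001. The block nearer the centromere, from 3000001 to 10000000, was nearly level, with a mean log2 ratio of -0.03. There 11 of 70 windows were higher in HRS and 17 higher in Loop. At the other end, from 130000001 to 131800000, 1 of 18 windows was higher in HRS and 9 higher in Loop. From 10000001 to 20000000, 4 windows were higher in HRS and 54 of 100 were higher in Loop, and the mean log2 ratio was -0.25 (-0.16 with fragment length corrected). The summed counts of that block gave log2 ratios of -0.28, -0.25 and -0.35 in pairs 1, 2 and 3. Over the genome 24% of 100 kb windows were higher in HRS and 25.5% higher in Loop. Blocks of other chromosomes were not set beside these. In the middle, from 50000001 to 60000000, 18 of 84 windows were higher in HRS and 3 higher in Loop, but fragments were fewest there (92.6 a window) and the mean log2 ratio was 0.09 without and -0.01 with fragment length corrected. The pairs of that block differed in sign, with log2 ratios of its sums of 0.05, 0.13 and -0.11 in pairs 1, 2 and 3. Retained windows were most frequent from 80000001 to 90000000, where 25 were higher in HRS and 23 higher in Loop, and the block sums gave log2 ratios of 0.13, 0.12 and 0.20. The last full block, from 120000001 to 130000000, was the densest in StyI fragments (161 a window), and its mean was -0.05 without and 0.12 with fragment length corrected.

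In windows of 1 Mb, 3 of 128 were higher in HRS (17.9% over the genome) and 26 lower (21.6% over the genome). With fragment length corrected these were 8 (22.2% over the genome) and 23 (20.7% over the genome). The highest window, from 87000001 to 88000000, held 1049, 1029 and 1573 CPM in HRS replicates 1, 2 and 3, against 697, 725 and 880 CPM in Loop and 750, 678 and 640.5 CPM in the inputs, and its log2 ratio was 0.70 ± 0.21 (SE, adjusted p 0.0286 in edgeR). The next window, from 109000001 to 110000000, had a log2 ratio of 0.60 (adjusted p 0.025 in edgeR). The window from 72000001 to 73000000, at 0.51, missed the threshold (adjusted p 0.0819 in edgeR) and passed it with fragment length corrected (0.70, adjusted p 0.02). HRS replicate 3 was the highest library in all 3. The lowest windows began at 14000001, 118000001 and 121000001, with log2 ratios of -0.55, -0.48 and -0.46.

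Released windows were richer in StyI sites than retained ones. The median number of fragments was 108 in windows higher in HRS, 131 in windows higher in Loop and 113 in windows not called, and the median of the mean fragment length was 924, 756 and 881 bp. Across the 1253 windows the log2 ratio of HRS over Loop had a Pearson's r of -0.21 with fragments per window, and of 0.05 with fragment length corrected. For the share of fragments of up to 200 bp these values were -0.24 and 0.06. Of the 251 windows in the group with the fewest fragments 59 were higher in HRS and 8 higher in Loop, and 20 and 9 with fragment length corrected. Of the 251 windows in the group with the most fragments 36 were higher in HRS and 92 higher in Loop, and 62 and 57 with fragment length corrected. Over the genome 24% of all windows were higher in HRS and 25.5% higher in Loop, and 24% and 21.2% with fragment length corrected. Such groups of other chromosomes were not set beside these.

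The excess of replicate 3 was set against the retained and released classes as called from replicates 1 and 2 alone. In HRS replicate 3 the median ratio to HRS replicates 1 and 2 was 1.20-fold in the 377 windows higher in HRS, 1.04-fold in the 449 windows higher in Loop and 1.01-fold in the 427 windows not called. In Loop replicate 3 the median ratio to Loop replicates 1 and 2 was 1.18-fold, 1.17-fold and 1.15-fold in the same classes. HRS replicate 3 thus differed between the classes while Loop replicate 3 was nearly level. As the classes were made with the replicates in the denominator, these values are a description. The D0 input ordered the classes likewise, with log2 medians over D12 and D21 of 0.12, 0.01 and -0.02. In 1 Mb windows of the chromosome the D0 and HRS replicate 3 ratios had a Pearson's r of 0.84. Windows of other autosomes were not set beside these classes.

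The comparison of HRS with input asked what the retained fraction gained and lost against whole DNA. Of 1253 windows 327 were higher in HRS (26.1%), against 25.1% over the genome, and 120 were lower (9.58%), against 16.8% over the genome. The chromosome was chosen in part by its share in HRS replicate 3, which is in this fit and favours calls higher in HRS. With fragment length corrected 335 were higher (25.4% over the genome) and 135 lower (17.6% over the genome), and 436 of the 447 first calls were made again. The balance rested on the scaling: with each library scaled to its own total on chromosome 8, which removes the dosage of the whole chromosome, 186 were higher and 278 lower, and with library totals 235 were higher and 369 lower. Scaling to chromosome 8 also shifted the windows of all other chromosomes, which share the fit and its adjustment. How far this moved the counts was not tested. The count of lower windows was 59 without HRS replicate 1 and 277 without HRS replicate 3, and the count of higher windows was 207 without D21. The 7 named retained regions all exceeded input, with log2 ratios of 0.95 to 1.58 for HRS over input, and 7 of the 8 named released regions were lower, with log2 ratios of -0.48 to -0.29. The choice of regions rested on the same HRS libraries, which favours such differences. The exception was the window beginning at 123400001, with a log2 ratio of -0.26 and an adjusted p of 0.147 in edgeR. In windows of 1 Mb, 32 of 128 were higher in HRS (21.8% over the genome) and 20 lower (21.2% over the genome), and the counts were the same with fragment length corrected (22.1% and 21.7% over the genome).

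The comparison of Loop with input called more windows higher than lower in Loop on this chromosome, and the calls depended on fragment length and on the scaling. In 287 windows Loop was higher (22.9%), against 13.1% over the genome, and in 57 it was lower (4.55%), against 13.7% over the genome. The chromosome was chosen in part by its share in Loop replicate 3, which is in this fit. That choice favours calls higher in Loop, so the difference from the genome is a description only. The median log2 ratio over all 1253 windows was 0.11, against -0.0025 over the genome. With each library scaled to its own total on chromosome 8 the counts were 19 higher and 23 lower. That scaling shifted the other chromosomes in the fit too, and its effect on the power to call windows was not tested. With fragment length corrected 0 windows were called in either direction by edgeR (0.0315% higher and 0.0118% lower over the genome), with 181 higher and 1 lower at an unadjusted p under 0.05, and uncorrected DESeq2 called 382. The median log2 ratio stayed at 0.10 with fragment length corrected, so the calls were lost but the shift of the chromosome was not. Left out alone, Loop replicates 1 and 3 and the D12 and D21 inputs moved the count of higher windows to 438, 165, 74 and 107. Without Loop replicates 1, 2 and 3 the count of lower windows was 32, 17 and 127, and without D12 and D21 it was 18 and 28. The 8 named released regions all exceeded input, with log2 ratios of 0.26 to 0.49 for Loop over input, and 0 of 8 passed with fragment length corrected. Of the 7 named retained regions 2 were lower in Loop, those beginning at 125500001 (log2 ratio -0.29) and 112300001 (log2 ratio -0.26), and their ratios were 0.01 and 0.05 with fragment length corrected. Loop replicate 3 held the excess of chromosome 8 described above, and its part in these calls is given by the counts with and without that library.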

How the data were processed

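Counts of StyI fragments in 9 libraries were used. Per the labels' protocols, an adaptor was joined to StyI ends and MmeI trimmed them to short tags for sequencing, so a fragment is counted by its ends. The authors deposited whole-number counts per fragment. The submitters' processing notes name CASAVA (1.8.2) and build mm9. No source used here gives the aligner or says how tags with several matches were handled. The last interval of each chromosome and the repeat tables, which give no chromosome, were left out.

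Counts were summed by fragment midpoint in windows of 100 kb and 1 Mb and tested genome-wide with edgeR (4.0.16, R 4.3.3), using its quasi-likelihood F test, TMM, filterByExpr (minimum count 10) and Benjamini-Hochberg adjustment at 0.05. Each fit held the libraries of its own groups. SE was obtained from the log2 ratio and F. Length correction entered as an offset the count expected from 20 fragment length classes. Alternatives were DESeq2 1.42.0, other scalings, no filter, 1 Mb windows, a stricter threshold (0.01), 1 fit of all libraries, the replicate block and each library left out. Dosage ratios are descriptions on CPM by library total. The fits were tested on simulated counts.

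The replicate numbers were taken to pair HRS with Loop only in the pair ratios, the rule for named windows and the replicate block. The main fits, with their SE and adjusted p, held no block, as no protocol states a pairing. Over all windows, HRS and Loop libraries of 1 number deviated together from their group means, with correlations of 0.453, 0.205 and 0.481 (limit 0.1). HRS replicate 2 nevertheless correlated more with Loop replicate 1 (0.349). Without chromosomes 8 and 11 the correlations of 1 number were lower, at 0.315, 0.13 and 0.346, and that of HRS replicate 2 with Loop replicate 1 was 0.262. Named windows were the 10 with the largest ratio in each direction among calls with 1 sign in all 3 pairs and at least the median CPM, with the 5 longest runs and the 3 highest and lowest 1 Mb windows. The chromosome, the lists and the rules were chosen with earlier results of these data known.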

Additional observations from a re-analysis of the deposited data

How the results depend on the processing

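For windows higher and lower in HRS than in Loop (214 and 313), an adjusted p of 0.01 left 121 and 187, scaling to the totals of chromosome 8 left 183 lower, and the replicate block gave 328 higher. Without both replicate 3 libraries 377 were higher, and 331 with length also corrected. Of the 1 Mb windows 3 and 26 were called, 8 and 23 with length corrected, and 32 and 43 with length corrected and the block. Leaving out 1 library gave 133 to 256 higher and 179 to 473 lower. For HRS over input (327 and 120), an adjusted p of 0.01 left 206 and 54, totals of chromosome 8 gave 186 and 278, library totals gave 369 lower, and 1 Mb windows gave 32 and 20 with and without length corrected. Leaving out 1 library gave 207 to 359 higher and 59 to 277 lower. For Loop over input (287 and 57), length correction and the 1 Mb windows each gave 0 and 0, totals of chromosome 8 gave 19 and 23, all 9 libraries in 1 fit gave 49 and 32, and an adjusted p of 0.01 left 81 and 15. Leaving out 1 library gave 74 to 438 higher and 17 to 127 lower. Fewer windows are tested at 1 Mb (128); beyond that the cause was not tested.

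All 15 named windows kept their direction and their call in HRS over Loop under the 17 settings run, the replicate block among them. They were picked as the largest ratios among calls from the same libraries, which favours such stability. Of all 527 calls, 357 recurred with length corrected and 296 with totals of chromosome 8. In Loop over input the windows beginning at 125500001 and 112300001 changed sign with length corrected, to 0.00870 and 0.0458 (adjusted p 0.986 and 0.899 in edgeR), and the cause was not tested. The share of chromosome 8 relative to input moved by less than the spread of its group in 35 of 36 values, the exception being HRS replicate 3 taken as a median over 1 Mb windows (1.006). The log2 medians of replicate 3 and D0, 0.14 in HRS, 0.23 in Loop and 0.04 in D0, were 0.19, 0.27 and 0.0498 when scaled on the autosomes without 8 and 11. They were 0.0735, 0.23 and 0.0292 in 100 kb windows, and 0.16, 0.22 and 0.0453 with fragments over 200 bp. Against D12 alone that of D0 was 0.0436. Against the other autosomes at matched fragment number the differences were 0.25 to 0.38 in HRS, 0.27 to 0.29 in Loop and 0.0321 to 0.0881 in D0. With 1 library of D0, no spread can be given for it.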
